A study of Mus musculus with 9 samples.

Results

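The endothelial and angiogenesis genes described here are 10 genes of the vessel wall: Pecam1, Cdh5, Kdr, Flt1, Tek, Tie1, Angpt2, Aplnr, Eng and Vwf. They were chosen by name, as known markers of endothelial cells and receptors or ligands of vessel growth, and every probe set that carries one of these symbols on the array was taken. That gave 17 probe sets for the 10 genes, out of 18193 genes that have a probe set with 1 symbol. The samples were 9 oral tumors of mice aged 1 year, each measured on 1 Affymetrix array, and the title of the series names Ras activation together with p53 mutations as their origin. In the 3 p53R172H/- tumors the missense allele p53R172H stood over a null allele, in the 3 p53R172H/+ tumors it stood over a wild-type allele, and the 3 p53-/- tumors had no p53 allele left. The labels give the mice of all 3 groups a K prefix (K-p53R172H/-, K-p53R172H/+, K-p53-/-) and do not spell it out. The sources used here do not say which Ras allele was activated, in which cells or by which promoter. Whether the p53R172H/+ tumors kept their wild-type allele was not analysed here. No label says whether each tumor had its own mouse, so a p-value weighs differences against the spread among the 9 tumors, which need not be a spread among animals.

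Endothelial cells line blood vessels, and a growing tumor draws new vessels from those around it. Vascular endothelial growth factor binds Kdr (VEGF receptor 2), the main receptor for endothelial growth, and Flt1 (VEGF receptor 1), which binds it tightly and, in a soluble form, can withhold it. The angiopoietins act on the receptor Tek, with Tie1 as its partner, and set whether vessels stay quiet or loosen. Eng is a co-receptor for ligands of the TGF-beta and BMP family, and Aplnr is the G protein-coupled receptor of apelin, used by sprouting and venous endothelium. Pecam1 and Cdh5 hold endothelial cells to each other, and Vwf, made by endothelial cells and platelets, serves in clotting.

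The members were measured above the array's background of dim probe sets, apart from Cdh5. Values are linear signal units of the array, and 14 of the 17 probe sets, from 9 of the 10 genes, had a mean above 113 units, the median over the array with its controls left out. These 9 genes entered the test over 12167 genes, each with its brightest probe set. Cdh5, which encodes VE-cadherin, the adhesion protein of endothelial junctions, was below that level on both of its probe sets. Its probe set 1422047_at lay under the floor of 52.6 units in 7 of 9 tumors and gives no usable order of the groups. Its other probe set, 1433956_at, was at 68.0, 83.4 and 79.7 units in p53R172H/- tumors, at 85.1, 101.6 and 85.3 in p53R172H/+ tumors and at 92.7, 56.7 and 85.6 in p53-/- tumors. All p53R172H/- values lay under all p53R172H/+ values, while the p53-/- tumors spanned both.

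No gene of the array passed an adjusted p of 0.05 in any comparison, 0% of the 12167 genes tested (limma, Benjamini-Hochberg), nor did any of the 34945 probe sets (0%) when every probe set was tested. At an unadjusted p under 0.05, 6.44% of genes were higher and 9.16% lower in p53R172H/- than in p53-/- tumors. The same shares were 4.75% and 5.6% for p53R172H/+ against p53-/-, and 2% and 2.96% for p53R172H/- against p53R172H/+. The values below are therefore differences between these tumors, none of which passed the test over all genes. The SE and p of a gene's brightest probe set come from the fit over genes unless stated otherwise. Those of its other probe sets come from the fit over all probe sets. The array medians ranged from 109 to 123 units. The squamous keratin Krt14 was at 21520 ± 1051 units in p53R172H/-, 21847 ± 668 in p53R172H/+ and 20924 ± 1527 in p53-/- tumors (SD, n = 3 each). Of 15 tested squamous epithelial genes, 8 were higher and 7 lower in p53R172H/- than in p53-/- tumors. Without overlap, 1 was higher (Epcam) and 1 lower (Pkp1), beside 9.11% and 13.8% of all genes. Epcam was at 1386 ± 283 units in p53R172H/-, 957 ± 389 in p53R172H/+ and 790 ± 270 in p53-/- tumors (SD, n = 3 each). The 3'/5' signal ratio of the actin control probe sets, a sign of RNA integrity, was 1.310 to 1.564 in p53R172H/-, 1.363 to 1.484 in p53R172H/+ and 1.502 to 1.687 in p53-/- tumors. Its part in the differences was not tested.

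**Figure D1:**
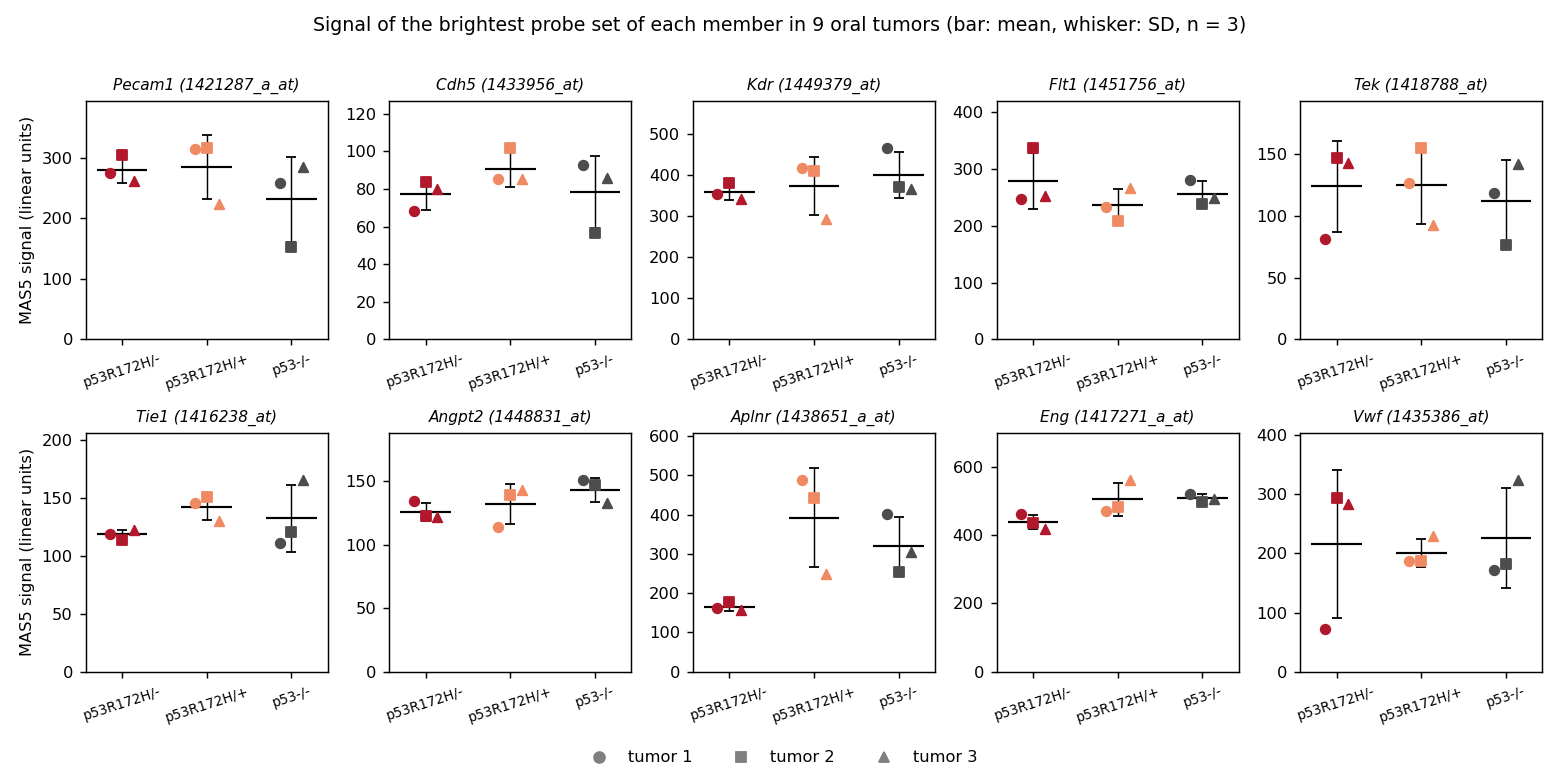
Signal in linear MAS5 units of the brightest probe set of each of the 10 members in the 3 p53R172H/-, 3 p53R172H/+ and 3 p53-/- tumors. Points are tumors, horizontal bars are group means and whiskers are the SD (n = 3). The 3 p53R172H/- tumors lie at 156 to 176 units for Aplnr, under the other 6 tumors.

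Aplnr differed most between the groups. On its brighter probe set, 1438651_a_at, the signal was 163.2, 176.2 and 156.4 units in p53R172H/- tumors, 486.9, 441.6 and 248.2 in p53R172H/+ tumors and 401.2, 253.4 and 304.9 in p53-/- tumors. The 3 p53R172H/- tumors were the lowest of the 9 and close to each other, while the other groups overlapped. The means were 165 ± 10.1 units in p53R172H/-, 392 ± 127 in p53R172H/+ and 320 ± 75.0 in p53-/- tumors (SD, n = 3 each). Aplnr was 1.90-fold lower in p53R172H/- than in p53-/- tumors, with a log2 fold change of -0.93 ± 0.25 (SE; limma adjusted p = 0.216). Against p53R172H/+ it was 2.28-fold lower, with a log2 fold change of -1.19 ± 0.25 (SE; limma adjusted p = 0.916), and stood 11th by p among the 12167 genes. Between p53R172H/+ and p53-/- tumors the log2 fold change was 0.26 ± 0.25 (SE), with overlapping values, and 0.08 without p53R172H/+ tumor 1 or 0.56 without p53R172H/+ tumor 3.

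The second probe set of Aplnr, 1423037_at, did not repeat the difference from p53-/- tumors. It was at 123.7, 115.3 and 102.8 units in p53R172H/- tumors, 160.8, 154.3 and 121.2 in p53R172H/+ tumors and 142.6, 93.7 and 109.2 in p53-/- tumors. Its log2 fold change was 0.00 ± 0.18 (SE) against p53-/- and -0.35 ± 0.18 (SE) against p53R172H/+ tumors, and all 3 groups overlapped. In the same fit over all probe sets, 1438651_a_at had an SE of 0.28 in both comparisons (limma adjusted p = 0.340 against p53-/-). With the mean of both probe sets, the log2 fold change of Aplnr was -0.46 against p53-/- and -0.77 against p53R172H/+ tumors. Fewer endothelial cells and less RNA per endothelial cell cannot be told apart in whole tumors.

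Eng, the co-receptor of the TGF-beta family, was slightly lower in p53R172H/- tumors. Its probe set 1417271_a_at read 460.9, 435.0 and 419.1 units in p53R172H/- tumors, 471.8, 484.1 and 560.7 in p53R172H/+ tumors and 521.3, 496.8 and 506.0 in p53-/- tumors. In these deposited signals all p53R172H/- values lay below all others. The log2 fold change was -0.21 ± 0.09 (SE; limma adjusted p = 0.320) against p53-/- and -0.20 ± 0.09 (SE; limma adjusted p = 0.949) against p53R172H/+ tumors. With the arrays scaled to one median it was -0.15 against p53-/- tumors (limma adjusted p = 0.480), so part of the difference depended on the scale of the arrays. Its dimmer probe set, 1432176_a_at, was at 160.9, 176.2 and 164.8 units in p53R172H/-, 188.9, 202.9 and 202.0 in p53R172H/+ and 174.6, 181.7 and 188.5 in p53-/- tumors. It too was lower in every p53R172H/- tumor than in every p53R172H/+ tumor (log2 fold change -0.24 ± 0.06 SE), and it overlapped with p53-/- tumors (-0.12 ± 0.06 SE). Every p53R172H/+ tumor was above every p53-/- tumor on this probe set (0.12 ± 0.06 SE). The brighter one did not show this (-0.01 ± 0.07 SE in the same fit over all probe sets, and 0.06 with the arrays scaled to one median).

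Flt1, the tight-binding VEGF receptor, went the other way on all 4 of its probe sets, each with a higher mean in p53R172H/- tumors than in either other group. The brightest, 1451756_at, was at 247.5, 336.1 and 253.1 units in p53R172H/-, 232.4, 208.3 and 266.4 in p53R172H/+ and 280.7, 238.5 and 249.1 in p53-/- tumors. These values overlapped, and p53R172H/- tumor 2 was the highest of all on each of the 4 probe sets. The log2 fold change of this probe set was 0.11 ± 0.15 (SE) against p53-/- and 0.24 ± 0.15 (SE) against p53R172H/+ tumors. Without p53R172H/- tumor 2 these values were -0.03 and 0.09. On 1440926_at the p53R172H/- tumors, at 138.4, 182.3 and 133.9 units, were above all p53R172H/+ tumors, at 121.7, 113.7 and 113.8, and all p53-/- tumors, at 129.0, 86.2 and 106.6. There the log2 fold change was 0.50 ± 0.18 (SE; limma over all probe sets, adjusted p = 0.372) against p53-/- and 0.37 ± 0.18 (SE; adjusted p = 1) against p53R172H/+ tumors. Pearson's r between the 4 probe sets over the 9 tumors was 0.58 to 0.92, a description of probe sets that share a gene.

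The start regions of Eng and Flt1 are shown as a pair with opposite values in p53R172H/- against p53R172H/+ tumors: Flt1 was higher on all 4 of its probe sets, and Eng was lower without overlap on both of its own. Other receptors, Tie1 among them, were also lower there. Each window runs from 250 bases before to 50 bases after the start of the gene (RefSeq, GRCm38.p6), and 5 of the 10 members had such a window in the table used. The Eng window is chr2:32646345-32646644 on the plus strand and the Flt1 window chr5:147725962-147726261 on the minus strand. Capitals mark AGGAAG and its reverse complement CTTCCT, letters bound by ETS factors, a family used in many endothelial promoters.
Eng: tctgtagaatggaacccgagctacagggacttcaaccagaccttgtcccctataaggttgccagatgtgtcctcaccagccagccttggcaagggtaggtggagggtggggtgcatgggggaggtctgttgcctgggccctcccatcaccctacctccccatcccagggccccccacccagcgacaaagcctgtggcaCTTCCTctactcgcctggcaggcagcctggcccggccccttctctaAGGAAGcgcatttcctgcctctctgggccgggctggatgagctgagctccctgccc
Flt1: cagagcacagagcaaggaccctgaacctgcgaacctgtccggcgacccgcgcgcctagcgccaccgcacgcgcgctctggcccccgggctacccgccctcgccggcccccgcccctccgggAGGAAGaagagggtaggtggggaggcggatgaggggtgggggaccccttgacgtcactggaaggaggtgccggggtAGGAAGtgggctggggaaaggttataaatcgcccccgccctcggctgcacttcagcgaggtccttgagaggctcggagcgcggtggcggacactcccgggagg
Both windows held 2 such matches, as did that of Tie1, while those of Kdr and Tek held 0. Over all 32851 windows of that length, 35.4% held at least 1 match on either strand. CCGGAAG, a separate ETS form that cannot match at the same bases as AGGAAG, was in 0 of the 5 member windows and in 8.86% of all. A TATAAA box stood in the Flt1 window alone among the 5, and in 13.6% of all windows, and the GATA letters AGATAA in that of Tek alone, and in 11.2% of all. Matching letters do not show that a factor binds there.

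**Figure D2:**
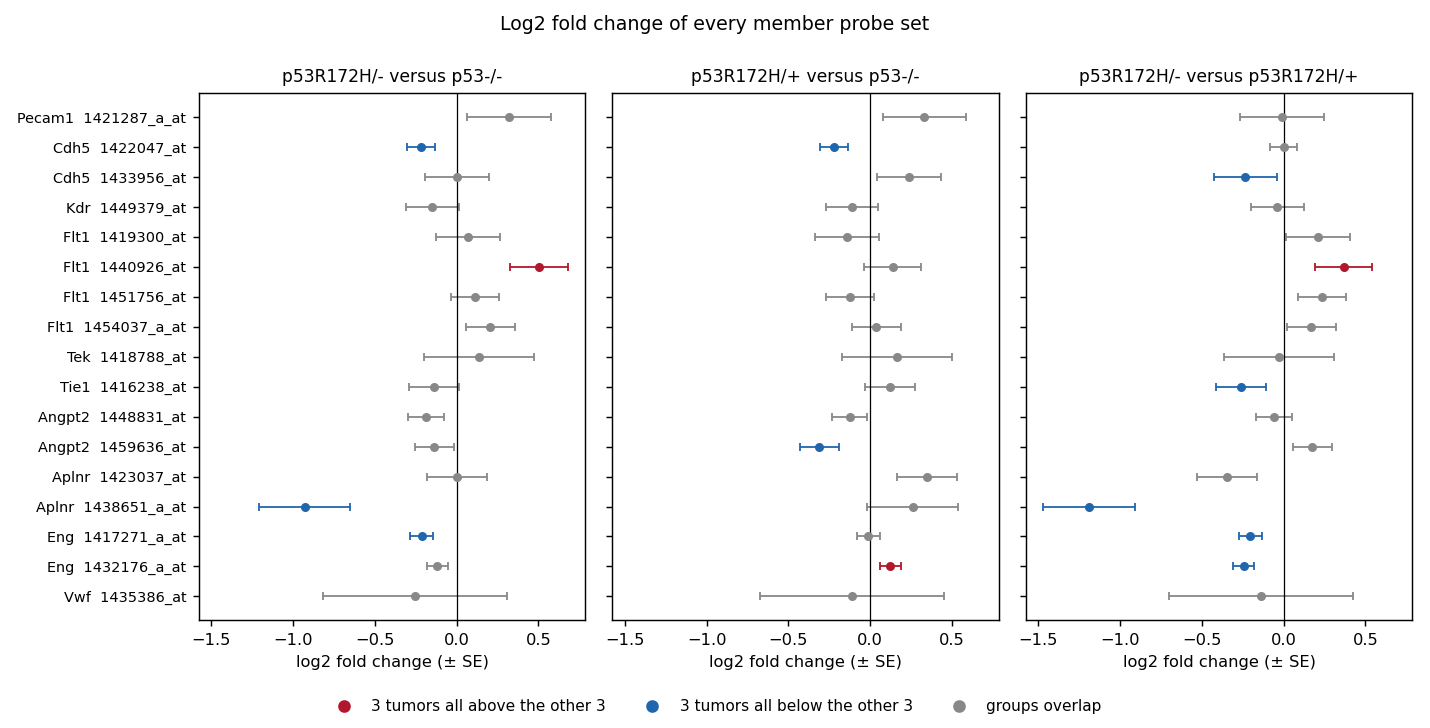
Log2 fold change with its standard error (limma over all probe sets) for each of the 17 member probe sets, in panels for p53R172H/- against p53-/-, p53R172H/+ against p53-/- and p53R172H/- against p53R172H/+. Colour marks probe sets whose 3 tumors all lay above or all below the other 3. Aplnr 1438651_a_at lies at -0.93 and -1.19 in the outer panels, and the Flt1 probe sets lie right of 0 there.

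The other receptors differed little. Kdr, the main VEGF receptor of endothelium, was at 353.6, 380.9 and 342.1 units in p53R172H/-, 417.2, 409.6 and 291.8 in p53R172H/+ and 464.1, 371.0 and 364.3 in p53-/- tumors. The groups overlapped, with log2 fold changes of -0.15 ± 0.16 (SE) for p53R172H/- and -0.11 ± 0.16 (SE) for p53R172H/+ against p53-/-. Without p53-/- tumor 1, the highest of the 9, these were -0.04 and 0.00. Tek, the angiopoietin receptor, was at 81.6, 147.1 and 143.2 units in p53R172H/-, 127.0, 154.9 and 92.6 in p53R172H/+ and 118.4, 76.8 and 142.4 in p53-/- tumors. The 3 lowest tumors came from 3 different groups, and the spread within groups exceeded the differences between them (0.14 ± 0.30 and 0.16 ± 0.30 SE against p53-/-). Tie1, the partner of Tek, was at 118.7, 113.8 and 122.1 units in p53R172H/-, 145.4, 150.9 and 129.5 in p53R172H/+ and 111.2, 120.1 and 164.7 in p53-/- tumors. All p53R172H/- tumors were below all p53R172H/+ tumors (log2 fold change -0.26 ± 0.15 SE, limma adjusted p = 0.949), and both overlapped with p53-/- tumors.

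Angpt2, a ligand of Tek that endothelial cells release and that can block its signal, was at 134.2, 122.3 and 121.5 units in p53R172H/-, 113.8, 139.2 and 142.9 in p53R172H/+ and 150.7, 147.1 and 132.7 in p53-/- tumors on 1448831_at. The mean was highest in p53-/- tumors and the groups overlapped (log2 fold change -0.19 ± 0.12 and -0.13 ± 0.12 SE against p53-/-). The dimmer probe set 1459636_at, below the median of the array, was at 88.3, 77.7 and 73.6 units in p53R172H/-, 74.3, 68.0 and 69.5 in p53R172H/+ and 80.3, 104.3 and 80.1 in p53-/- tumors. There all p53R172H/+ tumors lay below all p53-/- tumors (-0.31 ± 0.12 SE). The r of the 2 Angpt2 probe sets over the 9 tumors was 0.32.

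Pecam1, the junction protein CD31, was at 273.9, 303.5 and 261.4 units in p53R172H/-, 314.0, 315.3 and 224.2 in p53R172H/+ and 257.5, 151.9 and 284.9 in p53-/- tumors. The lowest tumor was p53-/- tumor 2, and the groups overlapped. The log2 fold changes against p53-/- were 0.32 ± 0.23 (SE) in p53R172H/- and 0.33 ± 0.23 (SE) in p53R172H/+ tumors, and 0.04 and 0.05 without p53-/- tumor 2. Vwf, the clotting protein, varied most of all members, at 72.0, 294.2 and 283.5 units in p53R172H/-, 187.0, 187.7 and 228.9 in p53R172H/+ and 172.4, 182.3 and 323.4 in p53-/- tumors. The lowest of the 9 values was p53R172H/- tumor 1, and the other tumors of that group were among the highest. The log2 fold change of Vwf against p53-/- was -0.25 ± 0.49 (SE) in p53R172H/- tumors, and 0.41 without p53R172H/- tumor 1. The mean log2 level of 18 skeletal muscle genes was 6.63, 10.46 and 9.46 in p53R172H/- tumors 1, 2 and 3, 7.23, 6.43 and 8.25 in p53R172H/+ tumors, and 7.70, 7.63 and 8.17 in p53-/- tumors. The part of muscle tissue in the Vwf values was not tested. Of 7 platelet and megakaryocyte genes, which mark the other source of Vwf, 2 were higher and 5 lower in p53R172H/- than in p53-/- tumors.

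As counts, 6 of the 9 tested members were lower and 3 higher on average in p53R172H/- than in p53-/- tumors, where 56.2% of all genes were lower. Their median log2 fold change was -0.15, beside -0.03 over all genes. Values did not overlap for 2 members, Aplnr and Eng, both lower, and this held for 13.8% of all genes in that direction and 9.11% in the other. Of the 17 probe sets 3 were lower without overlap, beside 11.6% of all probe sets, and 1 was higher, beside 8.11%. One of the 3 was the Cdh5 probe set under the floor.

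In p53R172H/+ against p53-/- tumors 5 members were lower and 4 higher, where 56.1% of all genes were lower, and all 9 overlapped. Non-overlap was seen in 7.08% of all genes as higher and in 8.86% as lower. The members' median log2 fold change was -0.01 beside -0.03, and the smallest adjusted p of a member was 0.603. Of the probe sets 1 was higher and 2 were lower without overlap, beside 5.98% and 8.26% of all probe sets. The lower ones were both dim, the Cdh5 probe set under the floor and 1459636_at of Angpt2, below the median of the array.

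Between the mutant groups, 8 members were lower and 1, Flt1, was higher in p53R172H/- than in p53R172H/+ tumors, where 52% of all genes were lower. Their median log2 fold change was -0.06, beside -0.01 over all genes. The 3 members without overlap (Aplnr, Eng and Tie1) were all lower, as were 6.62% of all genes, while 5.27% were higher. Of the probe sets 5 were lower and 1 was higher without overlap, beside 5.27% and 5.1% of all. The lower ones were Aplnr 1438651_a_at, Tie1, both of Eng, which share a gene, and the dim Cdh5 1433956_at. The higher one was Flt1 1440926_at. In the mean of both mutant groups against p53-/- tumors 7 members were lower and 2 (Pecam1 and Tek) higher, where 56.5% of all genes were lower, though Flt1 and Tie1, both at -0.01, were at 0.02 and 0.07 after quantile normalization. All 9 members overlapped there, and 7.27% of all genes did not. The comparisons share groups of tumors, so their values are not independent of each other.

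**Figure D3:**
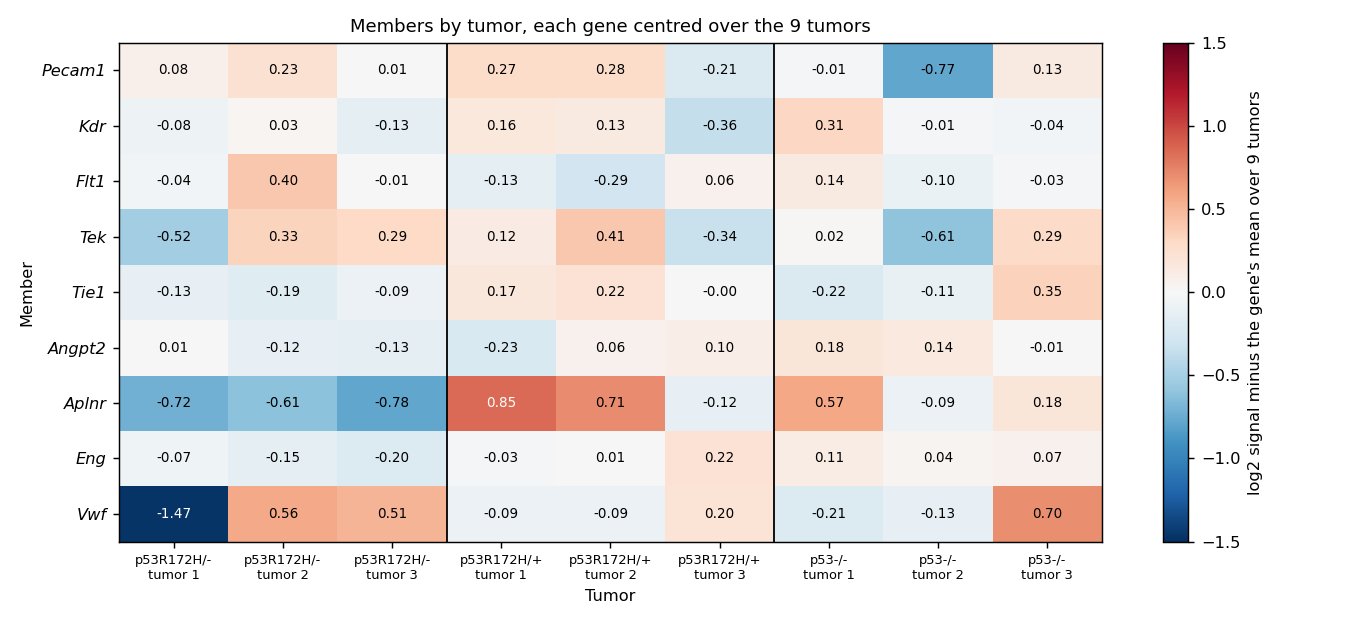
Log2 signal of the 9 tested members in each of the 9 tumors, minus the gene's mean over the tumors, with each value printed in its cell. Rows are members and columns are tumors, p53R172H/- at the left, p53R172H/+ in the middle and p53-/- at the right. Aplnr is at -0.78 to -0.61 in all p53R172H/- tumors, and Vwf is at -1.47 in p53R172H/- tumor 1.

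The members did not move as 1 block across the tumors. Among 36 pairs of members, r over the 9 tumors was above 0 in 21, with a median of 0.06. It ranged from -0.61 for Flt1 with Tie1 to 0.74 for Pecam1 with Tek, values given as a description of tumors that also share their groups. The highest signal over the lowest was 4.49 for Vwf and 3.11 for Aplnr, and their SD over the tumors lay at the 98.5th and 98.4th percentile of all probe sets. The ratio was only 1.34 for Eng and 1.32 for Angpt2 on their brighter probe sets. Group means were lowest in p53R172H/- tumors for 5 of the 9 members, in p53R172H/+ for 2 and in p53-/- for 2.

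The mean of the 9 members, each centred over the tumors, was -0.33, 0.05 and -0.06 in p53R172H/- tumors, 0.12, 0.16 and -0.05 in p53R172H/+ tumors and 0.10, -0.18 and 0.18 in p53-/- tumors on the log2 scale. The lowest tumors, p53R172H/- tumor 1 and p53-/- tumor 2, came from different groups, and a few members made up most of each low mean. In p53R172H/- tumor 1 these were Vwf (-1.47), Aplnr (-0.72) and Tek (-0.52), while Pecam1 was at 0.08 and Angpt2 at 0.01. In p53-/- tumor 2 they were Pecam1 (-0.77) and Tek (-0.61), while Angpt2 was at 0.14 and Eng at 0.04. Both tumors were also the lowest of the 9 in the mean log2 level of 11 leukocyte genes, at 8.20 and 8.04, where all tumors together ranged to 9.11. The 17 fibroblast and matrix genes were at 10.07 to 10.67 in p53R172H/-, 10.81 to 11.05 in p53R172H/+ and 10.35 to 11.17 in p53-/- tumors. Of these, 14 were lower on average in p53R172H/- than in p53-/- tumors and 15 lower than in p53R172H/+ tumors. This was the group direction of Aplnr on 1438651_a_at. At an unadjusted limma p under 0.05, 11 were lower and 0 higher in each of these comparisons. Of all genes, 9.16% and 2.96% were lower at that p. By tumor, p53-/- tumor 2, at 10.35, was below p53R172H/- tumors 2 and 3, at 10.46 and 10.67, in the mean of the 17 genes. Its Aplnr signal was above theirs on 1438651_a_at, at 253.4 units, and below theirs on 1423037_at, at 93.7 units. The part of stromal content in the Aplnr difference was not tested. Over the 9 tumors the members' mean had an r of 0.91 with that of the fibroblast and matrix genes, highest of the lists. The r was 0.74 with 31 other endothelial genes and 0.69 with the leukocyte genes. The 8 genes, other than members, most like the members' mean over the 9 tumors by r were Mxra8 (0.976), Lrrc15 (0.964), F2r (0.951), Klhl5 (0.949), Atp8b2 (0.940), Gabarapl2 (0.937), Arhgap42 (0.923) and Nipa1 (0.921). They were picked as the highest of all tested genes over only 9 tumors, so high r values were bound to appear. Vwf and Aplnr, with the widest spread over the tumors, weigh most in the members' mean. All r values with this mean are descriptions of tumors that also share their groups.

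**Figure D4:**
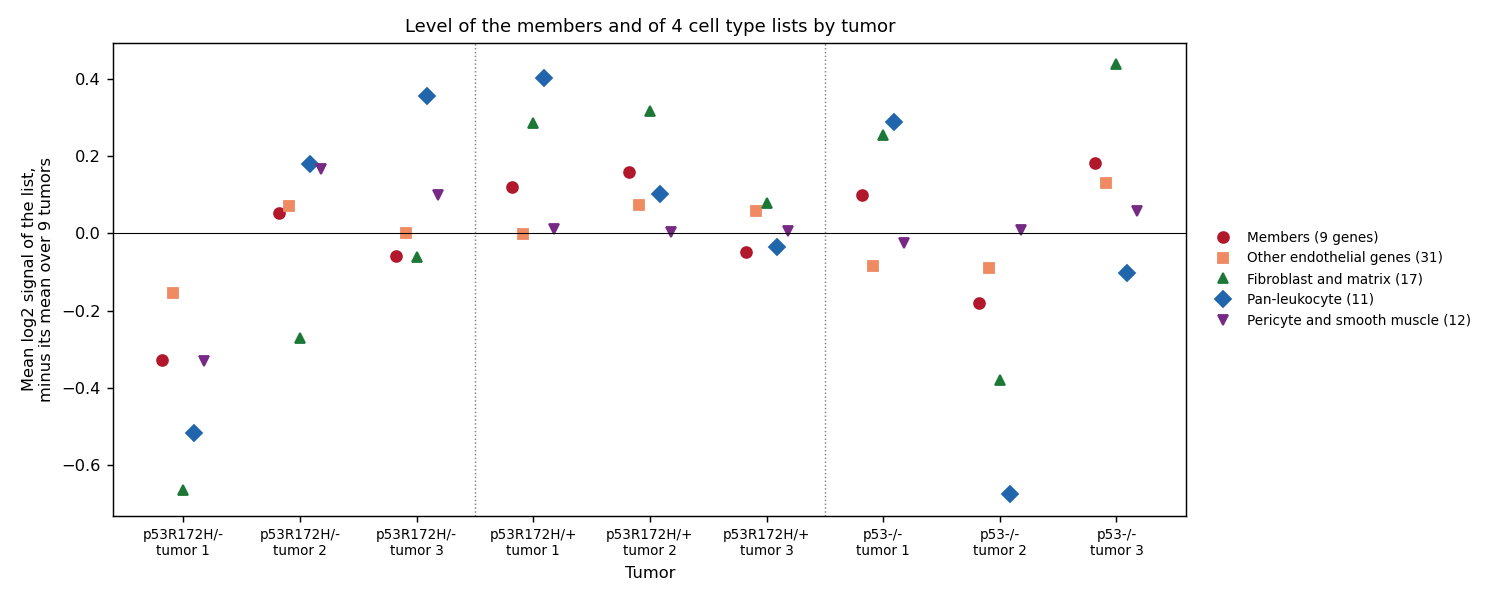
Mean log2 signal of the 9 members and of 4 other lists in each tumor, minus the list's mean over the 9 tumors. Columns are tumors, p53R172H/- at the left, p53R172H/+ in the middle and p53-/- at the right. In p53R172H/- tumor 1 and p53-/- tumor 2 the members, the fibroblast and the leukocyte genes all lie below 0.

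The direction of other endothelial genes differed between the comparisons. Of 37 listed, 31 were tested; 13 were higher and 18 lower in p53R172H/- than in p53-/- tumors, 20 higher and 11 lower in p53R172H/+ than in p53-/- tumors, and 10 higher and 21 lower in p53R172H/- than in p53R172H/+ tumors. Of all genes, 56.2%, 56.1% and 52% were lower in these comparisons. The medians were -0.02, 0.07 and -0.08, beside -0.03, -0.03 and -0.01 over all genes, and 0 genes passed the adjusted p in each. In p53R172H/- against p53R172H/+ tumors 5 were lower and 1 higher without overlap, beside 6.62% and 5.27% of all genes. With the smallest p against p53-/- in p53R172H/- tumors stood the transcription factors Mef2c (log2 fold change 0.62 ± 0.16 SE) and Sox7 (0.39 ± 0.11 SE), both higher, and Egfl7, a secreted endothelial protein (-0.28 ± 0.11 SE), and the transcription factor Gata2 (-0.26 ± 0.11 SE), both lower. Mef2c, also made by muscle and neurons, had a higher mean in p53R172H/+ tumors as well (0.45 ± 0.16 SE against p53-/-), and Gata2 a lower one (-0.32 ± 0.11 SE). Against p53R172H/+ tumors, the smallest p was again that of Sox7, higher without overlap in p53R172H/- tumors (0.32 ± 0.11 SE). The p53R172H/- tumors had less Cd93, a surface lectin of endothelium (-0.38 ± 0.15 SE), and less Emcn, the sialomucin of veins and capillaries (-0.28 ± 0.12 SE).

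Among the ligands and modulators of angiogenesis, Vegfa was higher in both mutant groups. Its signal was 406 ± 9.51 units in p53R172H/-, 425 ± 88.0 in p53R172H/+ and 292 ± 38.5 in p53-/- tumors (SD, n = 3 each), with no overlap between either mutant group and p53-/-. The log2 fold changes were 0.48 ± 0.15 (SE; limma adjusted p = 0.247) and 0.53 ± 0.15 (SE; limma adjusted p = 0.359). Adm, the vessel peptide adrenomedullin, was likewise higher in both (0.52 ± 0.17 and 0.48 ± 0.17 SE). The angiopoietin Angpt4 had a lower mean in both (-0.39 ± 0.15 and -0.34 ± 0.15 SE), without overlap only in p53R172H/- tumors. Serpinf1 was lower in p53R172H/- tumors than in p53-/- (-0.48 ± 0.19 SE, with overlap) and than in p53R172H/+ tumors (-0.47 ± 0.19 SE, without overlap). Thbs2, a matrix protein that restrains vessel growth, was at 228 ± 35.1 units in p53R172H/-, 570 ± 201 in p53R172H/+ and 436 ± 131 in p53-/- tumors (SD, n = 3 each). It did not overlap with either other group in p53R172H/- tumors (log2 fold change -0.90 ± 0.29 SE against p53-/- and -1.26 ± 0.29 SE against p53R172H/+). Of the 13 tested genes of this list 5 were higher and 8 lower in p53R172H/- than in p53-/- tumors, 6 and 7 in p53R172H/+ than in p53-/-, and 1 and 12 in p53R172H/- than in p53R172H/+. The list's mean log2 level was 7.879 to 7.944 in p53R172H/-, 8.085 to 8.178 in p53R172H/+ and 8.003 to 8.039 in p53-/- tumors. With the arrays scaled to one median it was 7.930 to 7.960 in p53R172H/-, 8.037 to 8.231 in p53R172H/+ and 7.892 to 8.064 in p53-/- tumors, so that the p53-/- tumors overlapped with both mutant groups.

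Co-receptors and genes of Notch, ephrin and BMP signalling in vessels numbered 19 tested. In p53R172H/- against p53-/- tumors 12 were higher and 7 lower. In p53R172H/+ against p53-/- tumors the counts were 10 and 9, and in p53R172H/- against p53R172H/+ tumors 9 and 10. Smad7, the inhibitor of TGF-beta signalling, was higher in p53R172H/- (0.52 ± 0.18 SE) and in p53R172H/+ tumors (0.81 ± 0.18 SE; limma adjusted p = 0.359) than in p53-/- tumors. Also against p53-/- tumors, the p53R172H/- tumors had more Efnb2, the ephrin of arteries (0.41 ± 0.14 SE), less of its receptor Ephb4, found on veins (-0.68 ± 0.25 SE), and less Notch1 (-0.42 ± 0.14 SE). These genes are also expressed by epithelium. Of 12 tested pericyte and smooth muscle genes, 4 were higher and 8 lower in p53R172H/- than in p53-/- tumors. The smallest p was that of Smtn, the smooth muscle protein smoothelin, which was higher without overlap (0.37 ± 0.11 SE), as was the smooth muscle myosin Myh11 (0.31 ± 0.12 SE), while the actin-binding protein Cnn1 was lower without overlap (-0.46 ± 0.19 SE). Pdgfrb, the PDGF receptor of pericytes and fibroblasts, was lower in p53R172H/- tumors than in p53-/- (-0.67 ± 0.20 SE) and than in p53R172H/+ tumors (-0.67 ± 0.20 SE), without overlap. Rgs5, a pericyte marker, was at 1497 ± 240 units in p53R172H/-, 1764 ± 38.8 in p53R172H/+ and 1808 ± 325 in p53-/- tumors (SD, n = 3 each). Of 5 lymphatic genes 3 were higher and 2 lower in p53R172H/- than in p53-/- tumors.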

How the data were processed

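Per the labels' protocols, biotin-labelled cRNA from total RNA of each of 9 oral tumors was run on an Affymetrix array. The authors made the deposited linear intensities, 1 for each probe set in each tumor, with MAS5, per the submitters' processing notes, with no version or scaling given in the sources used here. Of 45101 probe sets 64 are controls, and of the other 45037, 34945 had 1 gene symbol, 932 several and 9160 none. Only those with 1 symbol were tested. The member symbols matched the reference table of mouse genes (GRCm38.p6) for 17 of 17 probe sets.

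Values under the 20th percentile were set to that floor (52.6 units) before taking log2. A gene was represented by its brightest probe set on average, and 12167 of 18193 genes were kept, those at or above the median of 113 units. At the floor lay 0.0758% of the tested values. A mean per group was fitted over all 9 arrays with limma 3.58.1 (R 4.3.3), with a variance trend, so fold changes are on the floored log2 scale. A second fit used all 34945 probe sets without the filter. Tests were two-sided, with Benjamini-Hochberg adjustment over all genes or probe sets tested and a threshold of 0.05. The number of arrays limits the precision. Any 2 arrays shared at most 0.0421% of their values. The fit was tested on simulated data.

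The members and the other gene lists were chosen with earlier results of these data known. Named genes are every member, up to 4 genes with the smallest p in each other list and comparison, the 8 genes most like the members' mean, and markers of other cell types. Some genes stand in more than 1 list. The targeted gene was not analysed here and gives no check of the labels. Alternatives were other normalizations, floors, filters, probe set choices and variance models, a block for the tumor number, and leaving out each tumor in turn.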

Additional observations from a re-analysis of the deposited data

How the results depend on the processing

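The 36 log2 fold changes of the 9 tested members in 4 comparisons gave 315 values under other settings, of which 307 kept their direction, and 324 with 1 tumor left out, of which 289 did. None passed the adjusted p of 0.05 under any of them, the smallest being 0.209 and 0.170. Many of these values could not turn, so the counts overstate stability. Dropping the filter or the variance trend, or testing every probe set, left each log2 fold change as it was. So did the replicate block, a fit of only the groups compared, and leaving out a tumor of a group not compared. Aplnr kept its direction in p53R172H/- tumors throughout, at -1.08 to -0.46 against p53-/- (adjusted p 0.170 to 0.428) and at -1.49 to -0.77 against p53R172H/+ tumors (adjusted p 0.388 to 1), and its value nearest 0 came with the mean of its probe sets. Other values turned, and the cause was not tested. With the arrays scaled to one median, Eng in p53R172H/+ against p53-/- was at 0.055, and in both mutant groups against p53-/- Flt1 was at 0.062 and Tie1 at 0.060. After quantile normalization Flt1 and Tie1 were at 0.025 and 0.066 in that last comparison. With the mean of all probe sets of a gene, Eng in p53R172H/+ against p53-/- was at 0.057, Angpt2 in p53R172H/- against p53R172H/+ at 0.057 and Flt1 in both mutant groups against p53-/- at 0.10.

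With 1 tumor left out, p53R172H/- against p53-/- gave -0.030 to 0.19 for Flt1, -0.12 to 0.41 for Tek, -0.25 to 0.032 for Tie1, -0.60 to 0.41 for Vwf and -0.20 to 0.032 for the members' median, highest without p53-/- tumor 3. For p53R172H/+ against p53-/- the ranges were -0.20 to 0.057 for Kdr, -0.088 to 0.36 for Tek, -0.088 to 0.037 for Eng, -0.28 to 0.18 for Vwf and -0.088 to 0.18 for the median, again highest without p53-/- tumor 3. For p53R172H/- against p53R172H/+ they were -0.17 to 0.073 for Pecam1, -0.21 to 0.053 for Kdr, -0.23 to 0.25 for Tek, -0.16 to 0.00035 for Angpt2 and -0.49 to 0.53 for Vwf. For both mutant groups they were -0.077 to 0.062 for Flt1, -0.10 to 0.34 for Tek, -0.12 to 0.16 for Tie1 and -0.36 to 0.15 for Vwf, and 0 to 1 genes of the array were called. Among values that kept their direction, p53R172H/- against p53-/- gave 0.043 to 0.50 for Pecam1 and -0.21 to -0.036 for Kdr, p53R172H/- against p53R172H/+ gave 0.094 to 0.33 for Flt1 and -0.25 to -0.13 for Eng, and p53R172H/+ against p53-/- gave 0.053 to 0.51 for Pecam1, -0.22 to -0.038 for Flt1, 0.010 to 0.29 for Tie1, -0.19 to -0.023 for Angpt2 and 0.076 to 0.56 for Aplnr. The 1 call, Dusp6 without p53R172H/+ tumor 3 (1.94 ± 0.17 SE, limma adjusted p = 0.0375), is named after its value was seen. The tumor number as a replicate block changed no call. Every group has 1 tumor of each number, so this block can change errors and p-values but not log2 fold changes. The members' median of -0.15 in p53R172H/- against p53-/- tumors was therefore bound to stay. Same-numbered tumors correlated at -0.50 to 0.24 in their deviations from the group means, and differently numbered tumors at -0.47 to 0.52. With 3 tumors per group these values cannot settle whether the number marks something shared. A fit of only the groups compared was not run for both mutant groups against p53-/-, which uses all 9 tumors.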
